A study of Oryctolagus cuniculus with 6 samples.

Results

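Transcripts of 8 genes that build or mark adherens junctions and desmosomes were followed across 6 rabbit tracheal RNA-seq libraries. The genes were CDH1, CTNNB1, JUP, DSP, DSG2, DSC2, EPCAM and ESRP1, taken by gene symbol from the deposited expression table. All 8 had a row among its 29587 genes, and all 8 were among the 13724 genes with enough counts to test. The libraries were made from polyA RNA of tracheal mucosa from New Zealand rabbits aged 3 months. For the 3 high cuff pressure libraries, a 3.0 mm tracheal tube lay at a depth of 13 cm with its inflatable cuff held at 35 cmH2O for 2 h, and the other 3 libraries are controls. How the controls were handled and when the tissue was taken are not given in the labels. Control replicate 3 is titled S4 there, and no sample is titled S3. By cell type the labels give epithelial cells, but the protocol speaks of mucosa, and transcripts of fibroblasts, smooth muscle, endothelium and white cells were present too. Beyond the group size, the labels do not say whether each library came from a separate animal, so p-values measure only the spread between these samples.

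Adherens junctions join neighbouring epithelial cells through E-cadherin, the product of CDH1, whose cytoplasmic tail binds beta-catenin and through it alpha-catenin and actin. Desmosomes are the parallel attachment for keratin filaments: the cadherins desmoglein and desmocollin bind plakoglobin and plakophilins, which hold desmoplakin, and desmoplakin holds the keratins. In airway epithelium both structures give the cell layer its mechanical strength, EPCAM marks epithelial cells in general, and ESRP1 directs the epithelial pattern of splicing.

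No member passed the test for a difference between high cuff pressure and control. The edgeR quasi-likelihood test with Benjamini-Hochberg adjustment called 0 of the 8 genes higher and 0 lower, against a background of 3.67% of all tested genes called higher and 1.62% called lower. None of the 8 had an unadjusted p under 0.05, DESeq2 and limma-voom called 0 as well, and the adjusted p ranged from 0.346 to 0.866. The high cuff pressure and control libraries overlapped for all 8 genes in CPM, the counts scaled to library size with TMM factors, whereas 37.3% of all tested genes had groups that did not overlap. Fitted log2 fold changes, high cuff pressure minus control, were negative for 7 genes and positive for JUP, with a median of -0.31 beside -0.01 for all tested genes. In whole mucosa, fewer cells of a type and less RNA per cell cannot be told apart.

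**Figure D1:**
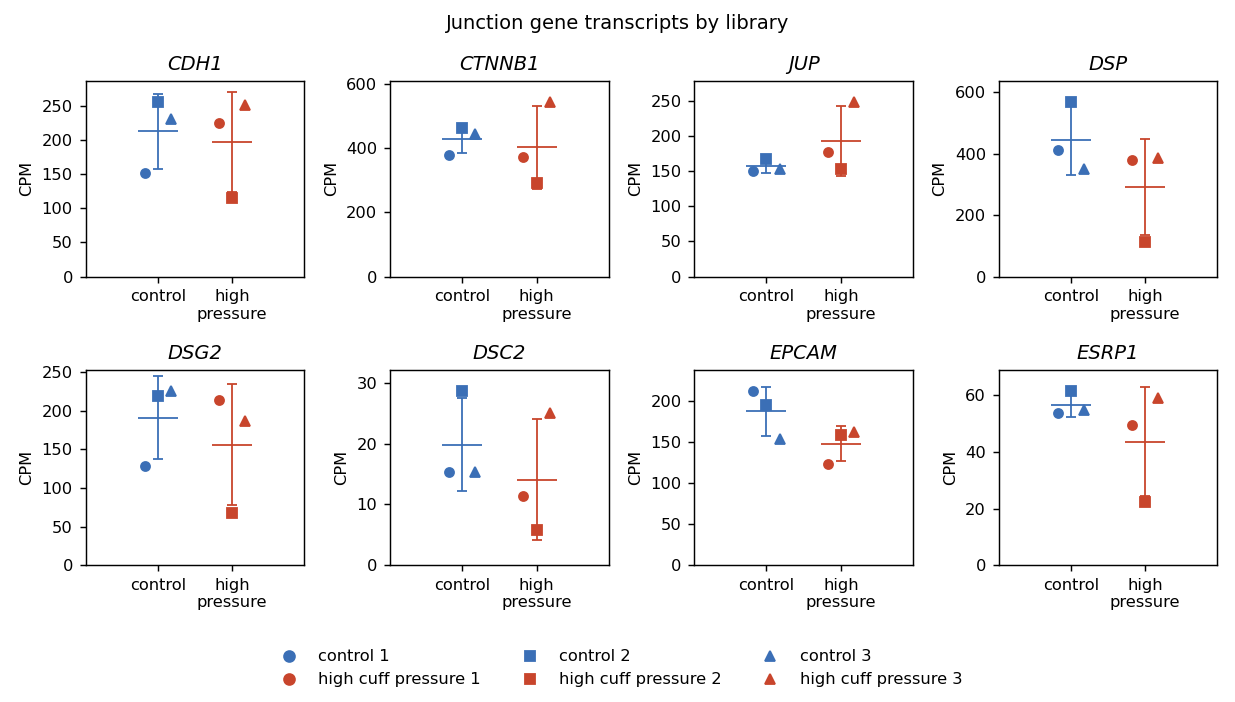
Transcript level of the 8 junction genes in CPM (vertical axes, linear from 0) in each control (blue) and high cuff pressure (red) library; dashes and bars are the mean and SD of 3 libraries. The groups overlap for every gene, and the red square, high cuff pressure replicate 2, is the lowest of the 6 libraries for 6 of the 8 genes.

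CDH1 encodes E-cadherin, the adhesive receptor of the adherens junction (chromosome 5, 24238932 to 24304692, plus strand). It was read at 225.5, 115 and 252 CPM in high cuff pressure replicates 1, 2 and 3 and at 151, 256 and 231 CPM in controls 1, 2 and 3. Replicate 2 was the lowest of the high cuff pressure group and replicate 1 the lowest of the controls, and both groups covered nearly the same range. The group means were 197 ± 72.8 and 213 ± 54.7 CPM (SD, n = 3 each). The log2 fold change was -0.11 ± 0.35 (SE), with a 95% interval from -0.91 to 0.69 and an edgeR adjusted p of 0.866. Leaving out high cuff pressure replicate 2 turned the sign, to 0.17, without a call.

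CTNNB1 encodes beta-catenin, which couples E-cadherin to actin and also acts in Wnt signalling (chromosome 9, 2704725 to 2788164, minus strand). Its 3 high cuff pressure libraries held 373, 291 and 544 CPM and its controls 379, 464 and 444 CPM. The controls lay within the span of the high cuff pressure libraries, of which replicate 2 was low and replicate 3 high. This gave a log2 fold change of -0.09 ± 0.29 (SE; 95% interval -0.76 to 0.58, edgeR adjusted p = 0.863), or 0.10 without high cuff pressure replicate 2. The row overlaps ULK4 on the opposite strand, and the sources used here do not say how the counting treated strand.

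JUP encodes plakoglobin, a relative of beta-catenin found in both kinds of junction (chromosome 19, 42674772 to 42688154, minus strand). Levels were 176, 153.5 and 248 CPM with high cuff pressure and 149.9, 167 and 153 CPM in the controls. Replicates 1 and 3 of high cuff pressure lay above all controls, and replicate 2 lay among them. The controls differed among themselves by only 1.11-fold, and the high cuff pressure libraries by 1.62-fold. Its log2 fold change was 0.30 ± 0.24 (SE; 95% interval -0.25 to 0.85, edgeR adjusted p = 0.430). Its sign depended on the scaling: it was -0.09 with total counts only and -0.12 in each fit on FPKM.

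DSP encodes desmoplakin, the link from the desmosome to keratin (chromosome 12, 1265561 to 1312668, plus strand). It was at 378.5, 113 and 385 CPM with high cuff pressure and at 411, 568 and 349.8 CPM in the controls. Replicates 1 and 3 of high cuff pressure lay inside the control range, and replicate 2 lay far under all other libraries. The log2 fold change of -0.60 ± 0.46 (SE) was the most negative among the members, with a 95% interval from -1.67 to 0.46 and an edgeR adjusted p of 0.408. With high cuff pressure replicate 2 left out it was -0.21 (adjusted p = 0.706 in edgeR). The DSP row overlaps that of SNRNP48 on the same strand, so its level is uncertain.

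DSG2 encodes desmoglein-2, the desmoglein of simple epithelia (chromosome 9, 72753854 to 72814979, plus strand). Its values were 214.5, 67.0 and 187 CPM with high cuff pressure and 129, 218.5 and 226 CPM in controls. High cuff pressure replicate 2 was again the lowest, followed by control replicate 1. Between the groups the log2 fold change was -0.29 ± 0.43 (SE; 95% interval -1.30 to 0.71, edgeR adjusted p = 0.686), and 0.08 without high cuff pressure replicate 2.

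DSC2 encodes desmocollin-2, the partner cadherin of DSG2 (chromosome 9, 72326062 to 72366648, minus strand), and was the least abundant member. It was read at 11.3, 5.77 and 25.1 CPM with high cuff pressure and 15.4, 28.7 and 15.4 CPM in controls, from 49 counts in the sparsest library to 446 in the richest. Its high cuff pressure libraries differed by 4.35-fold, the widest spread in that group among the 8 genes. A log2 fold change of -0.49 ± 0.53 (SE) was fitted (95% interval -1.71 to 0.73, edgeR adjusted p = 0.564), an interval that leaves out a 2-fold rise and takes in a 2-fold fall. Without high cuff pressure replicate 2 it was -0.12.

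EPCAM encodes the epithelial cell adhesion molecule, a surface marker of epithelial cells (chromosome 2, 138958143 to 138973213, minus strand). It stood at 124, 158.5 and 163 CPM with high cuff pressure and at 213, 196 and 154 CPM in controls. Control replicate 3 lay between the high cuff pressure libraries, while the other controls lay above all of them. The spread was narrow in both groups, 1.32-fold and 1.38-fold, and replicate 2 of high cuff pressure was not low. For EPCAM the log2 fold change was -0.34 ± 0.23 (SE; 95% interval -0.86 to 0.19, edgeR adjusted p = 0.346), the smallest adjusted p among the members.

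ESRP1 encodes an RNA-binding protein that sets epithelial splicing (chromosome 3, 110259984 to 110319027, plus strand). Levels were 49.5, 22.2 and 59.25 CPM with high cuff pressure and 53.7, 61.7 and 54.9 CPM in controls. The controls were tight at 1.15-fold, high cuff pressure replicate 3 lay among them, and replicate 2 lay far under the other 5 libraries. The log2 fold change was -0.38 ± 0.35 (SE; 95% interval -1.18 to 0.43, edgeR adjusted p = 0.493), and -0.06 without high cuff pressure replicate 2. Its relative ESRP2 had -0.26 (edgeR adjusted p = 0.408).

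High cuff pressure replicate 2 was the lowest of all 6 libraries for CDH1, CTNNB1, DSP, DSG2, DSC2 and ESRP1, 6 of the 8 genes, while 25.5% of all tested genes had their lowest value there. Against the mean of replicates 1 and 3, its log2 CPM differed by -1.76 for DSP, -1.58 for DSG2, -1.52 for DSC2, -1.28 for ESRP1 and -1.05 for CDH1. The deficit was smaller for CTNNB1 (-0.63) and JUP (-0.45), and EPCAM differed by 0.16.

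The same library had the strongest trend with transcript length. With the tested genes divided into 10 classes of equal size by the length of the gene model, its median log2 CPM relative to the mean of the controls was 0.57 in the shortest class and -0.45 in the longest. The same medians were 0.08 and -0.07 in high cuff pressure replicate 1 and 0.29 and -0.10 in replicate 3. In controls 1, 2 and 3 they were 0.16 and -0.11, -0.11 and 0.14, and -0.02 and -0.04. The members run from EPCAM with a model of 1246 bp to DSP with 12598 bp. Among genes of the same length class, 2.11% had a lower value than DSP in the comparison of replicate 2 with replicates 1 and 3, 3.13% than DSG2, 3.43% than DSC2, 5.75% than ESRP1 and 9.91% than CDH1. For CTNNB1 the share was 27.3% and for JUP 28.6%. For EPCAM 49.4% were lower, the middle of its class. With a length trend removed from every library, log2 fold changes between the groups were -0.35 for DSP, -0.19 for DSG2, -0.39 for DSC2, -0.30 for ESRP1, -0.04 for CDH1 and 0.04 for CTNNB1. They were -0.39 for EPCAM and 0.37 for JUP, both farther from 0 than with the trend kept. The part of RNA quality in these values was not tested.

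**Figure D2:**
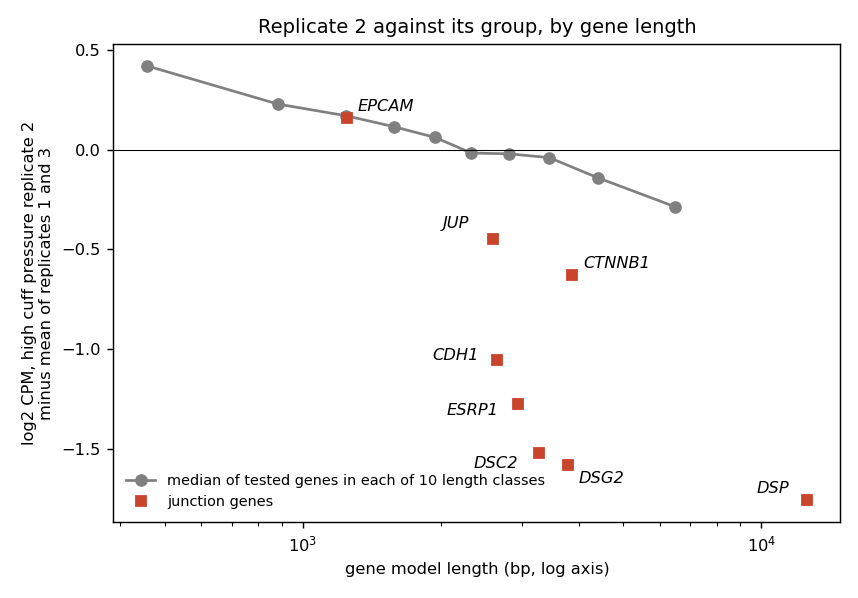
Difference in log2 CPM between high cuff pressure replicate 2 and the mean of replicates 1 and 3 (vertical axis) against gene model length in bp (log axis), with grey points for the median of each of 10 length classes of tested genes and red squares for the members. EPCAM lies on the grey line, and the other 7 members lie below it, DSP at -1.76 and JUP at -0.45.

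Levels of different genes were compared per length, as the deposited FPKM (fragments per kilobase of gene model and per fixed number of fragments in the library). In the controls the order was EPCAM (172 ± 21.5 FPKM, SD, n = 3), CTNNB1 (128 ± 23.7), CDH1 (93.3 ± 30.6), JUP (69.2 ± 9.21), DSG2 (59.0 ± 20.6), DSP (40.6 ± 12.2), ESRP1 (22.1 ± 3.30) and DSC2 (7.05 ± 3.14). Neighbours from CTNNB1 down to DSP overlapped in their libraries, and EPCAM, ESRP1 and DSC2 each lay apart from their neighbours. With high cuff pressure EPCAM stood at 104 ± 15.5, CTNNB1 at 91.8 ± 34.3 and DSC2 at 3.85 ± 2.88 FPKM.

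FPKM divides by the whole library, of which mitochondrial transcripts took 27.8% to 30.5% with high cuff pressure and 5.28% to 11.5% in controls. On that scale 3 members, DSP, EPCAM and ESRP1, had all high cuff pressure libraries below all controls, as did 33.0% of all tested genes. EPCAM read 88.9, 103 and 120 FPKM against 176, 191 and 148.5 FPKM. It did not pass on that scale either (log2 fold change -0.72 on log2(FPKM + 1), limma adjusted p = 0.0536). With total counts only, the median of all tested genes shifted to -0.40, and the split of called genes was 389 higher and 1241 lower in place of 503 and 222.

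Ratios within a library do not depend on its scaling, but they can carry its length trend where the gene models differ in length. The models have 2603 bp for JUP, 3871 bp for CTNNB1 and 12598 bp for DSP. JUP over CTNNB1 in FPKM was 0.703, 0.785 and 0.678 with high cuff pressure and 0.588, 0.534 and 0.514 in controls. Every high cuff pressure library was above every control, at 0.722 ± 0.056 against 0.545 ± 0.039 (SD, n = 3), so plakoglobin transcripts were the more abundant relative to beta-catenin there. DSP over JUP was 0.444, 0.152 and 0.321 against 0.567, 0.705 and 0.472, again without overlap but with replicate 2 far below the rest. DSG2 over DSC2 ran from 6.45 to 16.4 with high cuff pressure and from 6.58 to 12.7 in controls, and ESRP1 over ESRP2 from 0.336 to 0.775 against 0.581 to 0.675. These 2 ratios overlapped between the groups. The ratios and the part of length in them were not tested, and the share of all gene pairs without overlap was not counted.

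CDH1 and EPCAM served as a measure of the epithelial share of each library. The mean log2 CPM of the pair was 7.39, 7.08 and 7.66 with high cuff pressure and 7.49, 7.81 and 7.56 in controls, so the groups overlapped. The 2 genes did not move in step: CDH1 over EPCAM in CPM was 1.82, 0.724 and 1.55 with high cuff pressure and 0.708, 1.31 and 1.499 in controls. A list of 12 other general epithelial genes gave 7.67, 7.52 and 7.25 against 7.18, 7.10 and 7.36, with 2 of the 12 called higher, 0 lower and a median of 0.40. The called genes were AP1M2, a sorting adaptor subunit of epithelial cells (1.02, edgeR adjusted p = 0.0360), and the claudin gene CLDN7 (0.99, edgeR adjusted p = 0.0475). Leaving out any library but high cuff pressure replicate 1 ended both calls (edgeR adjusted p from 0.0539 to 0.182), while the log2 fold changes stayed within 0.90 to 1.08 for AP1M2 and 0.85 to 1.08 for CLDN7. Of 21 alternatives, 12 ended the call of AP1M2 and 13 that of CLDN7. Among these was scaling to CDH1 and EPCAM, with 1.29 (edgeR adjusted p = 0.067) and 1.23 (edgeR adjusted p = 0.0835), and total counts only, with 0.62 and 0.60.

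Relative to CDH1 and EPCAM, the JUP values separated the groups. Their log2 difference from the pair was 0.08, 0.19 and 0.29 with high cuff pressure and -0.26, -0.43 and -0.30 in controls, a gap between group means of 0.51 with no overlap. The same gap was 0.11 for CTNNB1, -0.17 for DSG2, -0.25 for ESRP1, -0.43 for DSC2 and -0.53 for DSP. Without high cuff pressure replicate 2 it was 0.51 for JUP, -0.09 for DSP, -0.07 for DSC2 and 0.21 for DSG2. Against the 12 general epithelial genes the JUP gap was 0.0038 and that of DSP -1.04. In edgeR fits scaled to the same references, JUP did not pass, at 0.51 relative to CDH1 and EPCAM (adjusted p = 0.263) and 0.07 relative to the general list (adjusted p = 0.909). DSP did not pass either, at -0.42 (edgeR adjusted p = 0.542) and -0.86 (edgeR adjusted p = 0.273). The medians of all tested genes in these fits were themselves 0.24 and -0.26. How many of all tested genes separated the groups relative to either reference was not counted, so the JUP separation has no background share beside it.

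**Figure D3:**
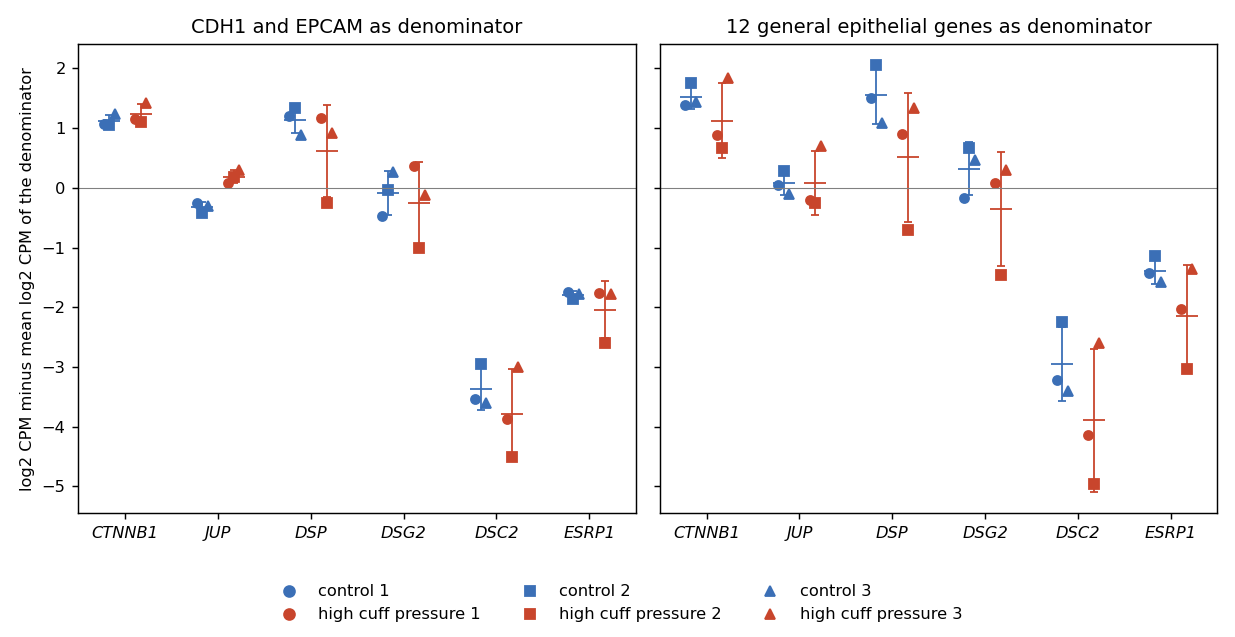
Log2 CPM of 6 members minus the mean log2 CPM of CDH1 and EPCAM (left) or of 12 general epithelial genes (right), with 1 point per library and the mean and SD of 3 libraries per group. JUP separates the groups on the left and not on the right, and high cuff pressure replicate 2 is the lowest red point for DSP, DSG2, DSC2 and ESRP1 in both panels.

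Among the other cadherins, CDH3 rose while the members did not pass. CDH3 encodes P-cadherin, a classical cadherin of basal epithelial cells, and lies beside CDH1 on chromosome 5 (24161473 to 24211022). It was at 95.6, 89.8 and 71.0 CPM with high cuff pressure and 26.8, 18.0 and 11.8 CPM in controls, with every high cuff pressure library above every control. It rose by 2.18 ± 0.33 (SE) on the log2 scale (edgeR adjusted p = 0.0203). The call was lost without high cuff pressure replicate 2 (2.15, with 0.0766 as the adjusted p in edgeR), without control replicate 2 (2.15, 0.105) and without control replicate 3 (1.93, 0.0914). CDH1 over CDH3 in FPKM was 3.05, 1.65 and 4.59 with high cuff pressure and 7.30, 18.3 and 25.3 in controls, again without overlap and not tested. Of 5 other cadherins tested, CDH3 was the 1 called higher and 0 were called lower, while 3 had negative values and the median was -0.24. CDH11 was at 17.2 ± 9.87 CPM with high cuff pressure against 36.25 ± 3.00 CPM in controls (SD, n = 3), without overlap and without a call (-1.07, edgeR adjusted p = 0.168). Of these 5 cadherins, 1 separated high and 1 low, beside 37.3% of all tested genes without overlap. CDH5, the cadherin of blood vessels, had 1.26 (edgeR adjusted p = 0.153), and CDH2, encoding N-cadherin, had too few counts to test, 1 to 9 with high cuff pressure and 7, 122 and 20 in controls.

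**Figure D4:**
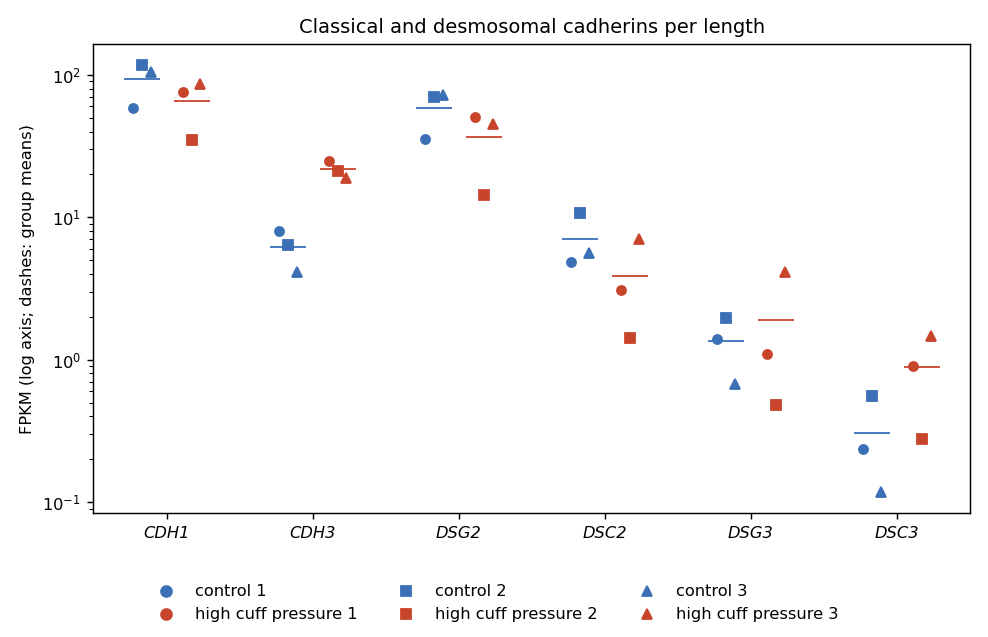
FPKM (log axis) of 2 classical and 4 desmosomal cadherins, with 1 point per library and dashes for group means. The 3 high cuff pressure libraries of CDH3 lie above its 3 controls, while the groups overlap for CDH1, DSG2, DSC2, DSG3 and DSC3.

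Among 12 other catenins and actin linkers, 1 rose and 0 fell, with a median of -0.04. ACTN4, encoding the actin crosslinker alpha-actinin-4, was at 134, 62.6 and 156 CPM with high cuff pressure and 43.8, 39.5 and 41.2 CPM in controls. It rose by 1.502 ± 0.34 (SE) on the log2 scale (edgeR adjusted p = 0.0475), a call that was lost in 12 of 21 alternatives and whenever a library other than high cuff pressure replicate 1 was left out. CTNNA1, encoding alpha-catenin, had -0.02 (edgeR adjusted p = 0.973). CTNND1, encoding p120-catenin, which holds cadherins at the surface, had -0.34 and was lowest in high cuff pressure replicate 2, at 58.7 CPM against 101 to 164 CPM elsewhere. Of 5 nectin and afadin genes, 0 passed with edgeR.

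Of 8 other desmosome genes tested, 0 were called with edgeR, 7 had positive values and the median was 1.07. PKP1, encoding the plakophilin of stratified layers, was at 21.0, 14.36 and 54.9 CPM against 12.6, 10.2 and 4.67 CPM, with 1.72 and an edgeR adjusted p of 0.0996. PPL, encoding periplakin, was at 114, 172 and 309 CPM against 86.6, 93.6 and 65.7 CPM, with 1.28 and an edgeR adjusted p of 0.0773. Both had groups that did not overlap, 2 of these 8 genes, beside 37.3% of all tested genes. Both passed with DESeq2 (adjusted p = 0.0213 and 0.0162), which called 1415 genes higher and 1196 lower of 14653 tested. Of 21 alternatives, 1 called PKP1 and 2 called PPL. PKP2, encoding the plakophilin of simple epithelia, had -0.35 (edgeR adjusted p = 0.403).

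The desmosomal cadherin genes form a cluster on chromosome 9, from DSC3 (72256809 to 72304461) to DSG2. The cadherins of stratified epithelium were scarce: DSC3 was at 4.53, 1.53 and 7.20 CPM against 1.03, 2.06 and 0.437 CPM, and DSG3 at 3.15, 1.53 and 11.7 CPM against 3.50, 4.18 and 1.46 CPM. Neither passed (log2 fold changes of 1.90 and 0.86, edgeR adjusted p = 0.126 and 0.467), and the groups of both overlapped. DSG1 had 0 to 24 counts per library and was not tested. DSG4 and DSC1 had 0 counts in all 6 libraries, which allows up to 0.193 to 0.353 CPM per library by counting error alone.

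Of 4 keratin genes of the kind anchored at desmosomes, KRT16 rose and 0 fell, with a median of 1.81. KRT16, a keratin of wounded epithelium, was at 76.0, 87.7 and 69.8 CPM against 6.15, 3.02 and 2.41 CPM with a log2 fold change of 4.34 ± 0.40 (SE) and 0.0127 as its edgeR adjusted p. The call was lost without high cuff pressure replicate 2, control replicate 2 or control replicate 3 (edgeR adjusted p = 0.0596, 0.0691 and 0.0701), and the row overlaps that of KRT13, so its level is uncertain. KRT5, the keratin of basal cells, was at 387.5, 945 and 2374 CPM against 326.5, 259 and 124.5 CPM, with 2.38 and an edgeR adjusted p of 0.0728. KRT5 was called in 2 of 21 alternatives, among them DESeq2 (adjusted p = 0.00175).

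**Figure D5:**
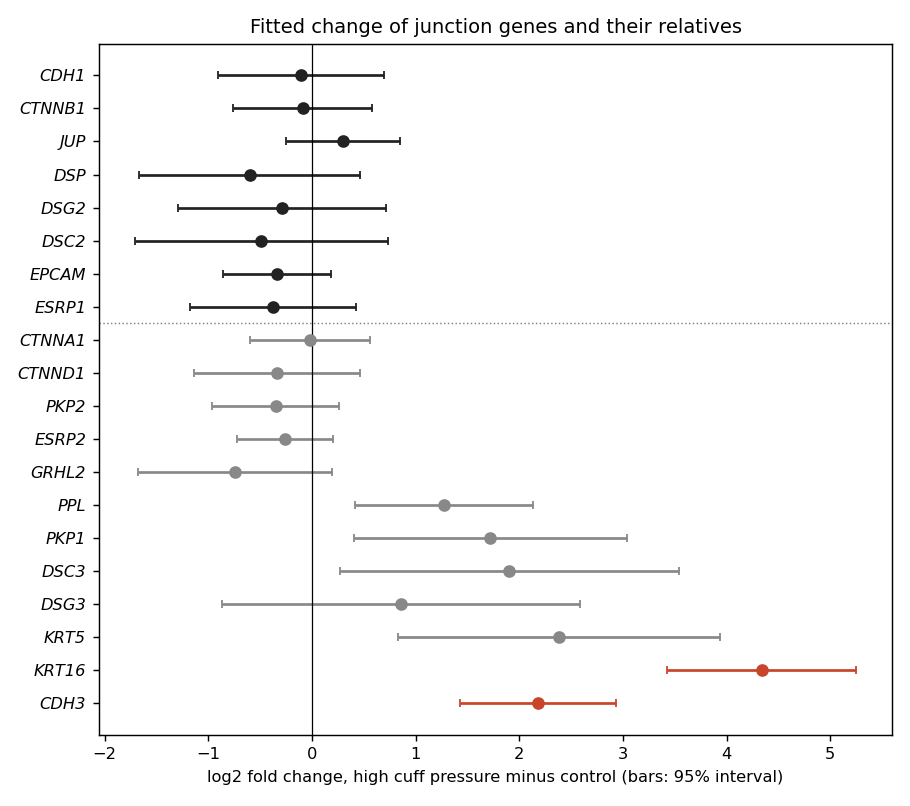
Fitted log2 fold change, high cuff pressure minus control (horizontal axis), with its unadjusted 95% interval for the 8 members (black, above the dotted line) and 12 related genes; red marks genes with an edgeR adjusted p under 0.05. The intervals of all 8 members include 0, and CDH3 and KRT16 are the red points at 2.18 and 4.34.

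Of 9 epithelial regulators of transcription and splicing, 0 passed with edgeR, and the median was -0.26. Among them 1 separated high and 2 low, beside 37.3% of all tested genes without overlap. KLF5, which separated low, had the smallest adjusted p (log2 fold change -1.44, edgeR adjusted p = 0.0563). Its means were 91.5 CPM with high cuff pressure and 248 CPM in controls. GRHL2, a grainyhead factor that maintains CDH1 expression in epithelia, was at 63.1, 21.5 and 53.0 CPM against 54.6, 95.04 and 80.6 CPM, lowest in high cuff pressure replicate 2 (log2 fold change -0.74, edgeR adjusted p = 0.258). Of 6 repressors of CDH1 and mesenchymal genes, 0 passed, with a median of -0.07. SNAI1, encoding the repressor Snail, was at 9.07, 10.2 and 2.58 CPM against 2.48, 0.450 and 0.364 CPM, from 5 to 92 counts per library. Its groups did not overlap (2.75, edgeR adjusted p = 0.0840), 1 of these 6 genes, beside 37.3% of all tested genes. DESeq2 was the only 1 of 21 alternatives to call it (adjusted p = 0.00745). ZEB1, ZEB2 and SNAI2 had -0.56, -0.57 and -0.34. The mesenchymal genes FN1 and VIM had 1.58 and 0.21 (edgeR adjusted p = 0.0914 and 0.866), with groups that overlapped. Of 8 genes for cadherin processing and shedding and 10 for beta-catenin turnover and transcription, 0 passed with edgeR, with medians of -0.18 and -0.30. In the first list 2 genes separated high (ADAM15 and ADAM17) and 3 low (ADAM9, ADAM10 and NUMB). In the second 2 separated high (CTNNBIP1 and LEF1) and 1 low (APC). The share of all tested genes without overlap was 37.3%.

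Markers of other cells differed between the libraries in which the members were read. Of 6 neutrophil genes 5 rose, and their summed level was 1481 to 6790 CPM with high cuff pressure against 6.82 to 422 CPM. Of 8 macrophage genes 4 rose, at 193 to 218 CPM against 54.9 to 99.0 CPM. Fibroblast genes had 2 of 7 lower, at 267 to 1478 CPM against 1162 to 2067 CPM, and 0 of 5 smooth muscle genes passed, at 417 to 6245 CPM against 4835 to 8015 CPM. Of 7 genes of multiciliated cells, which carry these junctions too, 0 passed, and their sum was 602 to 1560 CPM against 1746 to 2605 CPM. Log2 fold changes were negative for 6 and positive for 1, and 2, DNAH5 and CCDC39, had groups that did not overlap, beside 37.3% of all tested genes. DNAH5, with a model of 13245 bp, had means of 239.5 CPM with high cuff pressure and 992 CPM in controls. Of 4 basal cell genes 0 passed with edgeR, and their median was 0.07, at 443 to 2489 CPM against 180 to 404 CPM. KRT5 made up most of that sum, and the other 3 had log2 fold changes from 0.01 to 0.11. No gene of these lists was called without control replicate 2 or without control replicate 3, fits in which edgeR called 0 genes. The part of these shifts in the members' values was not tested.

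The genes most alike to the CDH1 and EPCAM mean over the 6 libraries, by Pearson r of log2 CPM, were MEX3C (0.992), ZNF212 (0.990), GATAD2B (0.989), ITGAV (0.988) and TMEM245 (0.985). They were picked as the highest of all tested genes, so the values are a description.

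The authors' deposited table called none of the 8 members, with q-values from 0.465 for DSP to 0.95 for CTNNB1. In the authors' deposited table CDH3 was listed as higher (q = 2.39e-06), as were KRT16 (q = 2.45e-19), ACTN4 (q = 0.00506) and PKP1 (q = 0.0247). Their term cell-cell junction held 25 higher and 15 lower of 459 genes and did not pass by the authors' q-value. CDH3, PKP1 and ACTN4 were among its higher genes, and CDH2 and CTNNA2 among its lower genes. No share of all genes called by the authors stands beside these counts. The term adherens junction organization held 1 higher and 8 lower of 54 genes in the authors' deposited table (q = 0.196), and none of those named there was a member. The KEGG adherens junction pathway held 0 higher and 1 lower of 49 genes in the authors' deposited table (q = 1).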

How the data were processed

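PolyA RNA of tracheal mucosa was, per the labels' protocols, read on a DNBSEQ-T7 instrument, and all libraries carry the same batch label. HISAT2 2.0.4, edgeR and StringTie 1.3.3b appear in the submitters' processing notes. The sources used here give no genome build, annotation or counting options, and positions are those of the deposited table. The authors deposited raw read counts per gene and FPKM per gene and library, per the file headers. Their deposited comparison holds p-values and q-values, and their deposited enrichment tables a rich factor, a ratio of shares that was not used here. Totals ranged from 10501734 to 14415754 counts per library, and 3 counts, the floor for a count of 0, equal 0.193 to 0.353 CPM on the TMM scale.

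Counts were tested with edgeR 4.0.16 in R 4.3.3 over all 13724 genes that passed filterByExpr, with TMM factors, robust glmQLFit and glmQLFTest, group as the only term and a Benjamini-Hochberg threshold of 0.05. CPM are TMM-scaled, log2 CPM use a prior count of 2, standard errors are the log2 fold change over the square root of F, and intervals of 95% use the test's degrees of freedom. The fit was tested on simulated data. Model lengths were derived from counts and FPKM. Replicates within a group differed by more than sampling noise, so each library counted once.

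Alternatives were DESeq2 1.42.0, limma 3.58.1 (voom on counts, trend on log2 FPKM with a pseudocount of 1 or 0.1), RLE factors, total counts only, other filters, a fit without robust estimation, a block for the replicate number, scaling to CDH1 and EPCAM or to the general epithelial list, and leaving out each library. Removal of a length trend (lowess span 0.5), a fit without mitochondrial genes and leaving out libraries for values relative to CDH1 and EPCAM were added after seeing the data. Members, 9 pathway lists and 14 cell type lists were chosen with earlier results of these data known; 150 of 179 list entries had a row. Named genes were the members, a set of junction genes and their regulators, up to 4 called genes per pathway list, and the 5 genes most alike to CDH1 and EPCAM with at least 10 CPM on average. KRT5, PPL, AP1M2, CLDN7, DSG4, DSC1, CDH11, CTNNA2, DNAH5 and CCDC39 were named after their values were seen. So were KLF5, FN1, ADAM9, ADAM10, ADAM15, ADAM17, NUMB, APC, CTNNBIP1 and LEF1. Not every gene of the rule is described. The RefSeq gene table matched 0 of the identifiers and no sequence was printed.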

Additional observations from a re-analysis of the deposited data

How the results depend on the processing

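No member was called in any of 21 alternatives; of 168 values over members and alternatives, 157 kept their direction and 11 changed sign. Over all genes, 503 were called higher and 222 lower. DESeq2 called 1415 and 1196, the fit with a replicate block 198 and 46, and log2(FPKM + 1) without a filter 127 higher. Lower calls numbered 1241 with total counts only, 1748 and 1448 on log2(FPKM + 1) and log2(FPKM + 0.1) with a filter, 51 when scaled to CDH1 and EPCAM (429 higher, median of all genes 0.24) and 931 when scaled to the general epithelial list (350 higher, median -0.26). Leaving out 1 library gave 0 to 1362 higher and 0 to 1261 lower; edgeR called 0 and 0 without control replicate 2 (1451 and 1240 at an unadjusted p under 0.05) or 3 (1387 and 1109), 68 and 8 without control replicate 1, and, with high cuff pressure replicates 1, 2 and 3 left out in turn, 1362 and 1261, 3 and 1, and 244 and 58. DESeq2 was not run with libraries left out.

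Signs changed as follows. Scaling to CDH1 and EPCAM gave CDH1 0.10, CTNNB1 0.11 and CTNNA1 0.23, and removing the length trend gave CTNNB1 0.036 and CTNNA1 0.17. JUP was -0.087 with total counts only and -0.12 in the 3 FPKM fits. With 1 library left out, values ran from -0.32 to 0.17 for CDH1, -0.37 to 0.10 for CTNNB1, -0.58 to 0.076 for DSG2, -0.37 to 1.298 for DSG3, -1.15 to 0.016 for SNAI2 and -0.17 to 0.093 for CTNNA1. Relative to the general epithelial list in place of CDH1 and EPCAM, CTNNB1 changed sign, to -0.40. JUP at 0.0038 and ESRP1 at -0.76 moved in size and kept their signs. The cause of these shifts was not tested.

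Same-numbered libraries did not deviate together (r of -0.277, -0.201 and -0.234), so the replicate block was not taken as a pairing. With 3 libraries a group, the intervals of DSP, DSG2 and DSC2 each spanned more than 2 on the log2 scale, and DSC2 rested on 49 to 446 counts. The planned search of promoters for motifs was not run.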
